A study of Mus musculus with 10 samples.

Results

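MHC class I presentation was followed in fetal mouse liver through 10 genes: the light chain B2m, the classical heavy chains H2-K1 and H2-D1, the peptide transporter subunits Tap1 and Tap2, the loading chaperone Tapbp, the immunoproteasome subunits Psmb8, Psmb9 and Psmb10, and the class I transactivator Nlrc5. The genes were taken by name, each matched to 1 Ensembl identifier among the 55401 in the count table, and all 10 were among the 14098 genes that passed the filter on low counts. RNA-seq was performed on whole livers of 10 female fetuses at E18.5, with 5 WT and 5 Mir483Pat-KO libraries. Mir483Pat-KO fetuses carried a constitutive deletion of Mir483, a microRNA gene inside an intron of the imprinted gene Igf2, inherited from the father and present in every cell. The deletion was made by Cre recombination in C57BL/6N embryonic stem cells, the mice were kept by crosses to C57BL/6J, and the WT fetuses were littermates with neither the deletion nor any treatment. Bulk RNA of a whole liver cannot tell fewer cells of a type from less RNA per cell.

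Class I molecules display short peptides from inside the cell to CD8+ T cells and natural killer cells. The proteasome cuts proteins into peptides, the Tap1 and Tap2 heterodimer carries them into the endoplasmic reticulum, tapasin (Tapbp) holds the empty molecule next to the transporter, and the heavy chain then leaves for the surface together with B2m. Interferons raise this whole set of genes in many cell types. Nlrc5, a member of the NLR family, switches on class I promoters through an enhanceosome, a complex of factors bound upstream. Fetal liver houses hepatoblasts, a large erythroid compartment, macrophages and endothelium, all of which may transcribe these genes.

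Of the 10 genes, 6 were lower in Mir483Pat-KO liver at an adjusted p under 0.05 (edgeR quasi-likelihood F-test, Benjamini-Hochberg over all genes tested), against 2.76% of all genes tested, and 0 were higher, against 2.43% of all genes. At an unadjusted p under 0.05, 9 were lower and 0 higher, against 10.7% and 11.5% of all genes. DESeq2 called 6 lower and 0 higher, against 4.32% and 3.91% of all genes, and limma-voom called 6 lower and 0 higher, against 2.84% and 2.5%. The 6 were H2-K1, H2-D1, Tap1, Tapbp, Psmb10 and Nlrc5, and in these same 6 every Mir483Pat-KO library was below every WT library, as in 3.26% of all genes. The remaining 4, B2m, Tap2, Psmb8 and Psmb9, did not pass. All 10 fold changes were below 0, with a median of -0.35 on the log2 scale against 0.0042 over all genes tested. Nlrc5 alone also passed a fold change over 1.5, which 0.872% of all genes did in that direction.

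**Figure D1:**
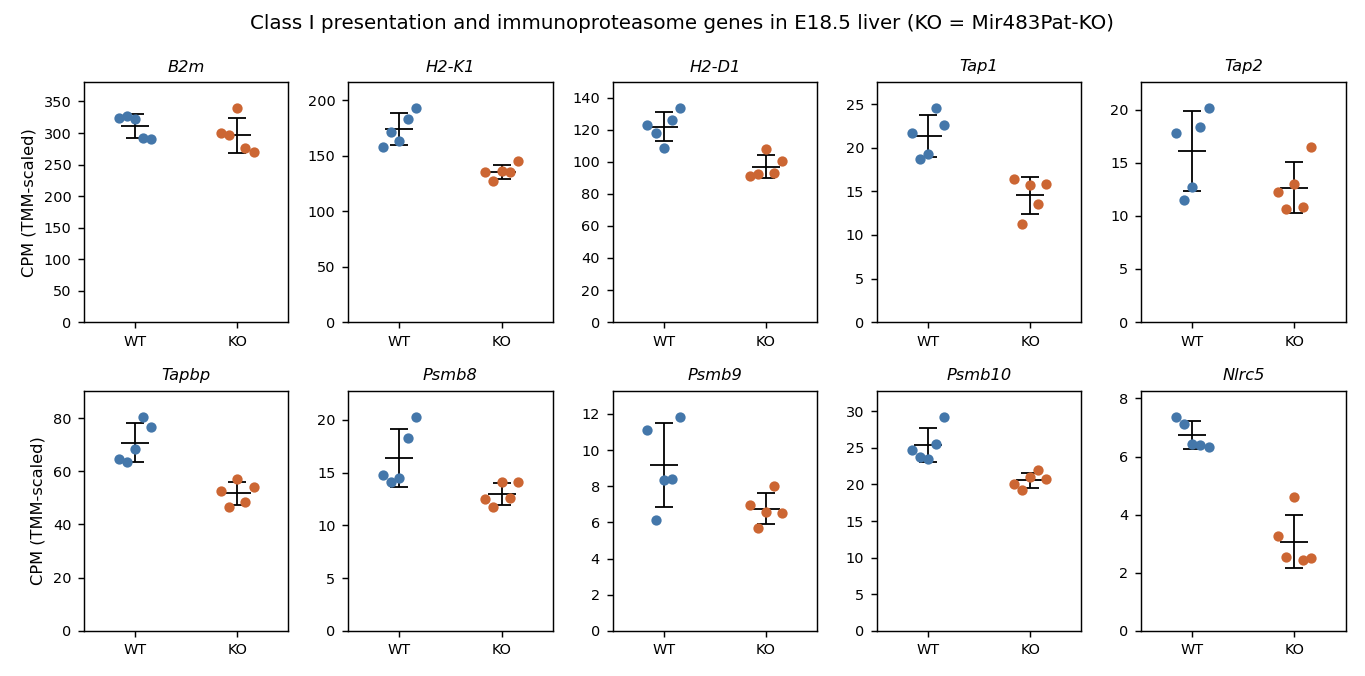
CPM (gene counts relative to the library total after TMM scaling, which evens out differences in composition; vertical axes start at 0) of each of the 10 genes in the 5 WT (blue) and 5 Mir483Pat-KO (orange) libraries, ordered by replicate number, with the group mean and SD in black. The groups are separate for H2-K1, H2-D1, Tap1, Tapbp, Psmb10 and Nlrc5 and overlap for the other 4.

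Sequence upstream of the start site is shown for the light chain, both heavy chains and Tap1, because class I genes are controlled through shared promoter elements. The windows run from 250 bases before to 50 bases after the RefSeq start site (GRCm38.p6), 5′ to 3′ on the gene's strand, and 8 of the 10 genes had one. Capitals mark letters that matched, on either strand, an interferon-stimulated response element (GAAANNGAAA), a kappa B site (GGGANNNNCC), a CCAAT box (CCAAT) or a STAT site (TTCNNNGAA).
B2m, chr2:122147437-122147736, plus strand: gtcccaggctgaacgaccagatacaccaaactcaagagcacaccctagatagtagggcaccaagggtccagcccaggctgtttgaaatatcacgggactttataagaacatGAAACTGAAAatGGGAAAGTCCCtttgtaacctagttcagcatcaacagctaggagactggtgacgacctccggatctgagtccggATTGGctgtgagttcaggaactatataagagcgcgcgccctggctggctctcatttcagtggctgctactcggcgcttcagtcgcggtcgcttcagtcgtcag
H2-K1, chr17:34000298-34000597, minus strand: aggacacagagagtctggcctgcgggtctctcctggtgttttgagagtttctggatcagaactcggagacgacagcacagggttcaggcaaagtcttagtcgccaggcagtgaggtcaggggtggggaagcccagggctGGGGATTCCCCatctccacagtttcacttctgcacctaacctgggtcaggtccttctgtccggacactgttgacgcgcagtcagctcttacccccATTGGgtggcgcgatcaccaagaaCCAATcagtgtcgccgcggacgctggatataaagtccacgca
H2-D1, chr17:35262844-35263143, plus strand: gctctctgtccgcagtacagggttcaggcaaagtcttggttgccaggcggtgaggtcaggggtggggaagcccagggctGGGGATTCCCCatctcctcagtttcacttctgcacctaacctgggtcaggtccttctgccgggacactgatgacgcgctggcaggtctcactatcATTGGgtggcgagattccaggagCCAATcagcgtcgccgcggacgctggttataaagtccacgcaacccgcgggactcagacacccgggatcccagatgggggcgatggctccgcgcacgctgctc
Tap1, chr17:34187306-34187605, plus strand: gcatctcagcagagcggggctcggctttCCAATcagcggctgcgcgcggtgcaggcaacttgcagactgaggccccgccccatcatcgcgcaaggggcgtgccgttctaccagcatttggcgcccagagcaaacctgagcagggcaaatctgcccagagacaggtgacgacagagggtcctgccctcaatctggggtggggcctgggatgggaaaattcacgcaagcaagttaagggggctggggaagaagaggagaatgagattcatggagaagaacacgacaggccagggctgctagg

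The B2m window held a response element at -139 and an overlapping pair of kappa B matches from -127, counted from the start site. H2-K1 and H2-D1 carried the same kappa B stretch and a CCAAT box in each orientation downstream of it. The Tap1 and Psmb9 start sites are 226 bases apart on opposite strands, so their windows overlapped in most of their length and shared a single CCAAT box. Among the 8 genes with a window, the response element letters were in B2m alone, and looser forms of that element were not searched. The kappa B letters were in B2m, H2-K1 and H2-D1, the STAT letters in Psmb8, and a CCAAT box in 6. Of all 27025 genes with a window, 3.99% held the response element letters, 22.9% the kappa B letters and 9.55% the STAT letters. A CCAAT box was in 41.1% of them. The Psmb10 window held none of these letters, and Tap2 and Nlrc5 had no window.

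The abundance of the class I transcripts in CPM, per kilobase of exon so that genes can be compared, spanned a wide range in WT liver. B2m stood at 362 CPM per kilobase, H2-K1 at 59.2 and H2-D1 at 47.3. Tapbp followed at 19.5 and Psmb10 at 14.9. Psmb8 at 4.85, Tap2 at 4.26 and Tap1 at 3.91 came next, and the WT libraries of these 3 overlapped. Psmb9 at 2.504 overlapped Tap2 alone among them, and Nlrc5 was the least abundant at 0.793 CPM per kilobase.

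B2m encodes the invariant light chain that every class I heavy chain needs to reach the surface, and lies on chromosome 2 at 122147686 to 122153083 of GRCm38. Its level was 323, 328, 322, 292 and 290.3 CPM in WT replicates 1 to 5, against 299.8, 296, 339.6, 276 and 269 CPM in Mir483Pat-KO replicates 1 to 5. The groups overlapped, with Mir483Pat-KO replicate 3 the highest of all 10 libraries. On the log2 scale the difference was -0.07 (SE 0.07, edgeR adjusted p = 0.608).

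The call for B2m changed with offsets for gene properties. Its exons have a GC content of 41.2%, within the lowest of 10 equal bins of all genes tested, and the median log2 fold change of the genes in that bin was 0.20. Bin medians went down with GC content to -0.14 in the highest, and the other 9 class I genes lay in the 3 bins whose medians ran from -0.05 to -0.09. With offsets for GC content and transcript length together, B2m was lower in Mir483Pat-KO with a log2 fold change of -0.27 (SE 0.06, adjusted p = 0.0267), past the threshold. Fitted one at a time, choices added after the data were seen, the GC content offset gave -0.23 and missed the threshold (adjusted p = 0.0502), and the length offset gave -0.08 (adjusted p = 0.60). The joint offsets brought H2-K1 to -0.30, Tapbp to -0.35 and Nlrc5 to -1.07, all still past the threshold.

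H2-K1 encodes a classical heavy chain that presents peptides to CD8+ T cells, on chromosome 17 at 33996017 to 34000347, minus strand. Its level was 158, 172, 163, 183 and 193 CPM in WT replicates 1 to 5 and 135, 127, 136, 135 and 145 CPM in the Mir483Pat-KO replicates. All Mir483Pat-KO libraries were below the lowest WT library, and they were tighter among themselves, with a coefficient of variation of 4.64% against 8.29%. The mean fell from 174 ± 14.4 to 136 ± 6.29 CPM (SD, n = 5 each), a log2 fold change of -0.36 (SE 0.07, edgeR adjusted p = 0.00966).

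H2-D1, the other classical heavy chain of C57BL/6 mice, lies at the far side of the complex on chromosome 17 at 35262730 to 35267499. WT replicates 1 to 5 were at 123, 118, 109, 126 and 134 CPM and the Mir483Pat-KO replicates at 91.0, 92.3, 108, 93.1 and 101 CPM. The groups did not overlap, but the highest Mir483Pat-KO library, replicate 3, was only 0.947 CPM below the lowest WT library. The mean fell from 122 ± 9.25 to 97.0 ± 7.09 CPM, or -0.33 on the log2 scale (SE 0.07, edgeR adjusted p = 0.0175). Without Mir483Pat-KO replicate 4 the adjusted p was 0.0523 and the call was lost.

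The proportion of the heavy chains to each other was read within each library. The ratio of H2-K1 to H2-D1, in counts per kilobase within a library, was 1.25 ± 0.07 in WT and 1.23 ± 0.08 in Mir483Pat-KO, a log2 difference of -0.02 (two-sided exact permutation test, p = 0.595). The direction turned without Mir483Pat-KO replicate 3, when the log2 difference was 0.01. Both heavy chains share sequence with other class I genes: of the 50-base stretches of their transcripts, 9.63% for H2-K1 and 12.8% for H2-D1 also occur in transcripts of other genes, and the rule for reads that map to several places is not given in the sources used here. Relative to B2m, H2-K1 went from 0.165 ± 0.0231 in WT to 0.135 ± 0.0158 in Mir483Pat-KO and H2-D1 from 0.131 ± 0.0169 to 0.110 ± 0.00944, with overlapping ranges; these 2 ratios were chosen after their values were seen, carry the difference in GC content between the chains and were not tested.

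Peptide transport and loading are encoded inside the complex, on chromosome 17. Tap1, the first transporter subunit, at 34187553 to 34197225, was at 21.8, 18.8, 19.2, 24.6 and 22.6 CPM in WT replicates 1 to 5 and at 16.4, 11.3, 15.8, 13.5 and 15.8 CPM in the Mir483Pat-KO replicates. Every Mir483Pat-KO library was below the WT range, replicate 2 farthest. The mean fell from 21.4 ± 2.41 to 14.6 ± 2.14 CPM, 68.2% of WT, or -0.55 on the log2 scale (SE 0.11, edgeR adjusted p = 0.0109).

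Tap2, its partner subunit, at 34203527 to 34216321, was at 17.8, 11.5, 12.7, 18.4 and 20.2 CPM in WT, set against 12.3, 10.6, 13.02, 10.83 and 16.5 CPM in Mir483Pat-KO replicates 1 to 5. WT replicates 2 and 3 sat among the Mir483Pat-KO libraries, and the WT coefficient of variation was 23.5%, against 11.3% for Tap1. The log2 fold change of -0.34 (SE 0.16) did not pass (edgeR adjusted p = 0.211). Of the exonic bases of Tap2, 18.46% overlap the antisense genes Gm20496 and Gm15821, and the strand setting of the counting is not given in the sources used here.

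Tapbp, which encodes tapasin, lies at 33915899 to 33929292. WT replicates 1 to 5 were at 64.6, 63.6, 68.5, 80.5 and 76.5 CPM and Mir483Pat-KO replicates at 52.5, 46.7, 57.2, 48.3 and 54.04 CPM. The groups were separate, by 6.37 CPM between the nearest libraries. The mean fell from 70.7 ± 7.43 to 51.8 ± 4.27 CPM, or -0.45 on the log2 scale (SE 0.08, edgeR adjusted p = 0.00672). The antisense gene Gm19412 overlaps 24.9% of the exonic bases of Tapbp and the same-strand neighbour Zbtb22 another 4.11%.

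The immunoproteasome subunits take the place of the catalytic subunits of the constitutive core and change which peptides are cut. Psmb8, the counterpart of Psmb5, at 34197721 to 34201454 on chromosome 17, was at 14.7, 14.1, 14.5, 18.3 and 20.3 CPM in WT replicates 1 to 5 and at 12.5, 11.7, 14.1, 12.6 and 14.1 CPM in Mir483Pat-KO. The ranges overlapped by 0.018 CPM, at WT replicate 2. The log2 fold change of -0.33 (SE 0.11) did not pass (edgeR adjusted p = 0.0926). The antisense gene Gm20496 overlaps 14.7% of the exonic bases of Psmb8.

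Psmb9, the counterpart of Psmb6, shares its start region with Tap1 at 34181987 to 34187764, minus strand. WT libraries were at 11.1, 6.12, 8.37, 8.39 and 11.8 CPM and Mir483Pat-KO libraries at 6.95, 5.71, 6.59, 8.03 and 6.52 CPM. WT replicate 2 was below 4 of the 5 Mir483Pat-KO libraries, and the other 4 WT libraries were above all of them. The log2 fold change of -0.44 (SE 0.16) did not pass (edgeR adjusted p = 0.118). Without WT replicate 2 it was -0.56, with an adjusted p of 0.0306.

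Psmb10, the counterpart of Psmb7, lies outside the complex on chromosome 8 at 105935735 to 105938444, minus strand. WT libraries were at 24.7, 23.8, 23.5, 25.6 and 29.2 CPM and Mir483Pat-KO libraries at 20.1, 19.2, 20.99, 21.9 and 20.8 CPM. The groups were separate, by 1.53 CPM. The mean fell from 25.3 ± 2.33 to 20.6 ± 1.02 CPM, or -0.30 on the log2 scale (SE 0.08, edgeR adjusted p = 0.0441). This call was close to the threshold: it was lost with the GC content and length offsets (adjusted p = 0.0518), with the GC content offset alone (0.102), with no filter on low counts (0.056), in the lower range of fetus identification numbers described further on (0.208) and when any 1 library other than WT replicate 2 or 3 was left out, with adjusted p up to 0.0997.

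Each immunoproteasome subunit was also set against the constitutive subunit it replaces, within each library. Psmb10 to Psmb7, in counts per kilobase, was 0.466, 0.519, 0.548, 0.588 and 0.642 in WT replicates 1 to 5 and 0.425, 0.378, 0.42, 0.377 and 0.382 in Mir483Pat-KO. All Mir483Pat-KO ratios were below all WT ratios, and the log2 difference of -0.47 gave p = 0.00794 in a two-sided exact permutation test, the smallest the 252 arrangements can give, and 0.0397 after Benjamini-Hochberg adjustment over 5 ratios. Psmb7 has a GC content of 40.8% and Psmb10 of 56.5%, and with offsets for GC content and transcript length, an alternative added after the data were seen, the log2 difference was -0.24 and did not pass (exact permutation p = 0.0635, adjusted 0.132). Without offsets it passed in all 5 comparisons without 1 WT library, at an adjusted p of 0.0198 to 0.0397, and in 0 of the 5 without 1 Mir483Pat-KO library, at 0.0661 to 0.0794 (exact permutation test).

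Psmb9 to Psmb6 was 0.0587 ± 0.0126 in WT and 0.0410 ± 0.00540 in Mir483Pat-KO, a log2 difference of -0.50 (exact permutation p = 0.0317, adjusted 0.0794). It passed without WT replicate 2, at -0.64 with an adjusted exact permutation p of 0.0198. Psmb8 to Psmb5 was 0.201 ± 0.0274 and 0.165 ± 0.0252, a log2 difference of -0.29 (exact permutation p = 0.0635, adjusted 0.106). Of the 50-base stretches of Psmb5, 54.1% also occur in other genes, chiefly Gm3375. Tap1 to Psmb9, the pair with the shared start region, was 1.63 ± 0.36 and 1.45 ± 0.218 (exact permutation p = 0.429, adjusted 0.536).

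**Figure D2:**
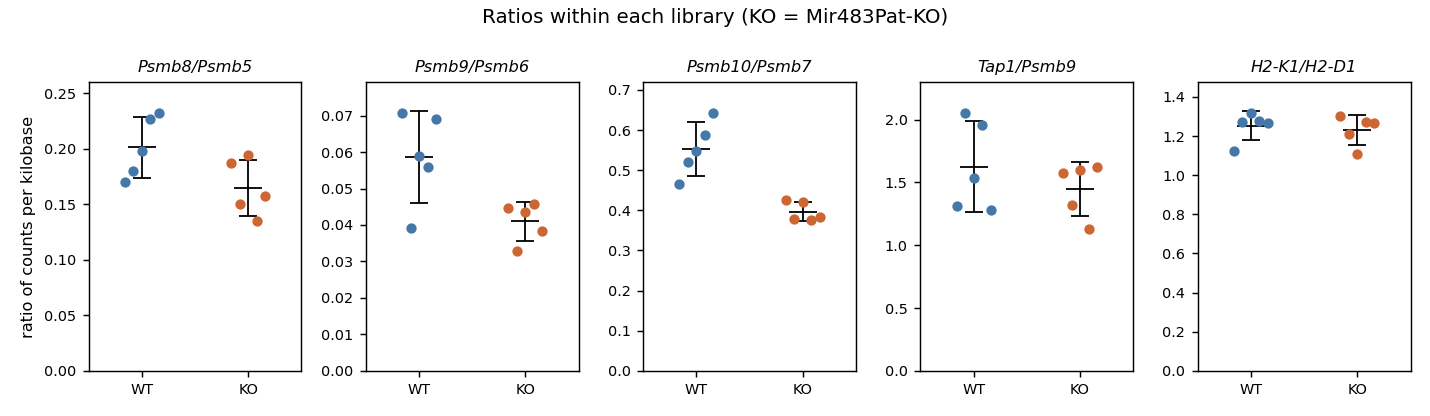
Ratios of counts per kilobase of exon within each library (vertical axes start at 0; WT blue, Mir483Pat-KO orange; black, mean and SD). The groups are separate for Psmb10 to Psmb7 and overlap in the other 4 panels.

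The constitutive subunits were also read on their own. Psmb5 stood at -0.02 on the log2 scale (SE 0.10, edgeR adjusted p = 0.926), Psmb6 of 0.09 (SE 0.07, adjusted p = 0.487) and Psmb7 of 0.18 (SE 0.08, adjusted p = 0.183). Of the 14 constitutive core subunits, 0 passed in either direction by edgeR's test, DESeq2 or limma-voom, 0 were lower and 4 higher at an unadjusted p under 0.05, 11 had a fold change above 0, and the median log2 fold change was 0.09. With the GC content and length offsets 9 of the 14 were above 0, the median was 0.03 and Psmb7 was at 0.01. Without offsets, Psma3 had the smallest p of these, at 0.26 on the log2 scale (adjusted p = 0.0873), and with them it was at 0.10 (adjusted p = 0.456).

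Nlrc5, on chromosome 8 at 94434356 to 94527272, showed the largest change of the 10 genes. Its level was 7.37, 7.12, 6.44, 6.39 and 6.34 CPM in WT replicates 1 to 5 and 3.28, 2.54, 4.596, 2.44 and 2.501 CPM in Mir483Pat-KO. Every Mir483Pat-KO library was below every WT library, and replicate 3, the highest of them, still lay 1.75 CPM below. The mean fell from 6.73 ± 0.478 to 3.07 ± 0.919 CPM, 45.8% of WT, or -1.13 on the log2 scale (SE 0.17, edgeR adjusted p = 0.00306). Behind these values stood 83 to 90 counts per WT library and 27 to 60 per Mir483Pat-KO library.

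The spread between libraries was also compared for Nlrc5 and the rest of the set. Its coefficient of variation was 7.1% among WT and 29.9% among Mir483Pat-KO libraries. Of the 10 genes, 3 had a larger SD of log2 CPM in Mir483Pat-KO, namely B2m, Tap1 and Nlrc5, as did 45.1% of all genes tested. Psmb9 had a coefficient of variation of 25.2% in WT and 12.5% in Mir483Pat-KO.

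**Figure D3:**
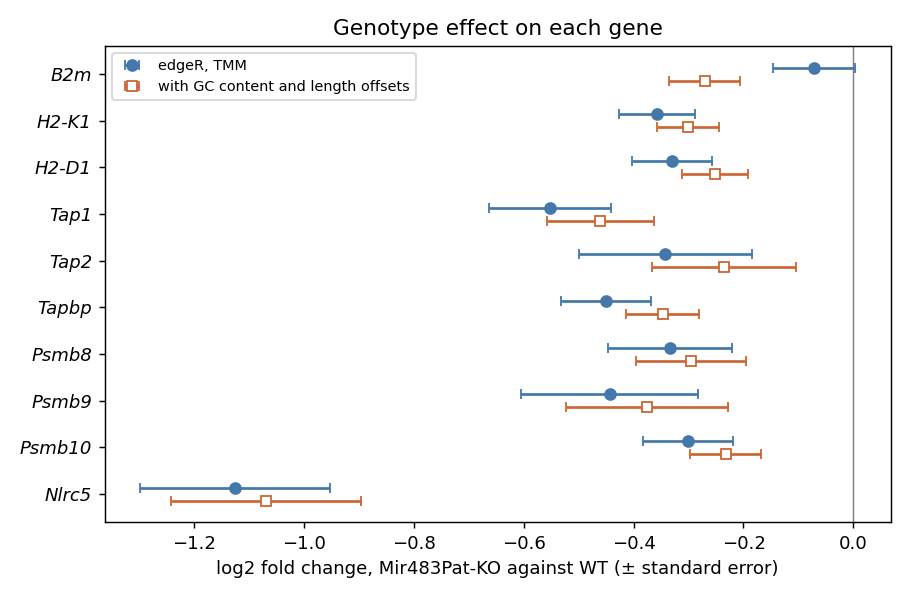
Log2 fold change of Mir483Pat-KO against WT for each gene, with its standard error, from the edgeR fit (filled circles) and with offsets for GC content and transcript length (open squares). All points are below 0; B2m is at -0.07 in the first and at -0.27 in the second.

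The set was next read library by library. The mean log2 level of the 10 genes, each relative to its own mean over the 10 libraries, was 0.24, 0.06, 0.10, 0.28 and 0.37 in WT replicates 1 to 5 and -0.19, -0.37, -0.07, -0.26 and -0.17 in Mir483Pat-KO. WT replicate 5 was the highest WT library for 6 genes and WT replicate 2 the lowest for 5. Mir483Pat-KO replicate 2 was the lowest of its group for 7 genes and replicate 3 the highest for 5. The summed level of the 10 genes was 747 to 804 CPM in WT, against 622 to 715 CPM in Mir483Pat-KO, without overlap.

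**Figure D4:**
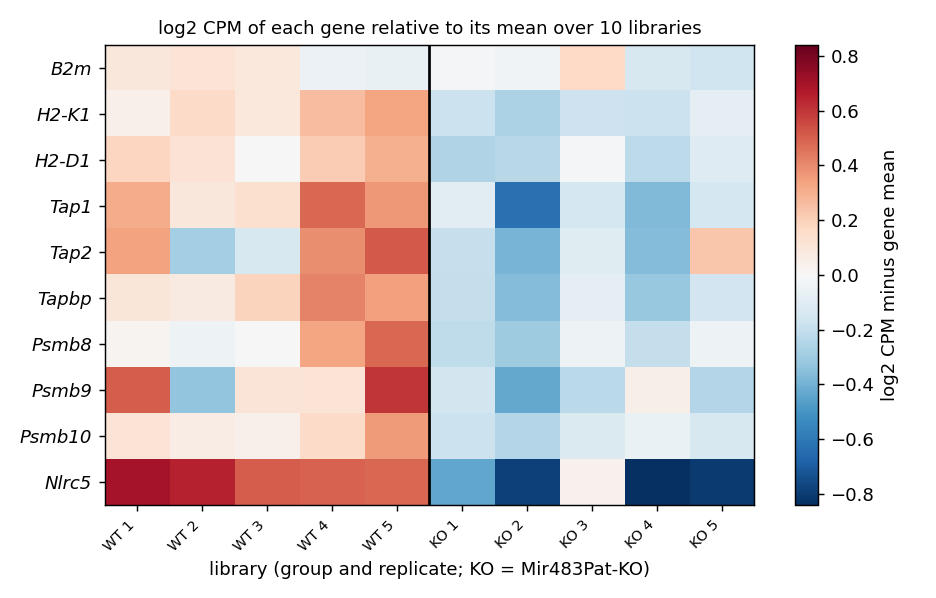
Log2 CPM of each gene (rows) in each library (columns) relative to that gene's mean over the 10 libraries; red is above and blue below the mean, and the black line divides WT from Mir483Pat-KO. The Nlrc5 row spans the widest range, and Tap2 and Psmb9 in WT replicate 2 are blue among WT libraries.

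The libraries carry fetus identification numbers that fall into a lower range, with 4 WT and 2 Mir483Pat-KO libraries, and an upper range, with 1 WT and 3 Mir483Pat-KO libraries; the labels do not say what the ranges stand for. With the range as a covariate, 8 of the 10 genes were lower, against 3.85% of all genes lower and 4.58% higher, Psmb8 at -0.44 on the log2 scale (edgeR adjusted p = 0.0217) and Psmb9 at -0.56 (adjusted p = 0.0442) in addition to the 6. In the lower range alone, all 10 fold changes were again below 0, with a median of -0.39, but only Nlrc5 passed, at -1.23 with an adjusted p of 0.0436. There 20 genes in all were called lower and 3 higher. In the upper range the 3 Mir483Pat-KO libraries were all below the single WT library for 9 genes, as for 31.2% of all genes tested, and 2 of 3 were for B2m; that WT library, replicate 5, is the highest WT library for 6 of the 10.

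Other members of the class I family were partly lower. Of 18 other class I heavy chain genes of the complex, 9 were tested, with a median log2 fold change of -0.20. By edgeR's test, DESeq2 and limma-voom 3 were lower and 0 higher, and at an unadjusted p under 0.05 4 were lower and 0 higher. Of all genes, 2.76%, 4.32%, 2.84% and 10.7% were lower by these criteria in turn, and 2.43%, 3.91%, 2.5% and 11.5% higher. The counts for the other lists are to be read against the same shares. H2-T24 fell from 88.1 ± 6.13 to 58.2 ± 14.3 CPM (log2 fold change -0.60, edgeR adjusted p = 0.0139), H2-Q4 from 23.04 ± 3.06 to 16.01 ± 1.21 CPM (-0.53, adjusted p = 0.00815) and H2-Q10, a secreted heavy chain typical of liver, from 476 ± 17.9 to 404 ± 15.5 CPM (-0.24, adjusted p = 0.0342). With the GC content and length offsets H2-Q10 did not pass (adjusted p = 0.0743), while H2-T24 and H2-Q4 did. Of 7 class I-like genes outside the complex, 6 were tested and 2 were lower: Fcgrt, the neonatal Fc receptor that also pairs with B2m, at -0.36 (adjusted p = 0.0198), and Azgp1, which encodes a soluble class I-like glycoprotein, at -0.42 (adjusted p = 0.0214). Cd1d1, which presents lipids, was at -0.34 (adjusted p = 0.189). Of these 6, 4 were lower and 0 higher at an unadjusted p under 0.05, and 5 had a fold change below 0 and 1 above. Their median log2 fold change was -0.35, as for the 10 class I genes. With the GC content and length offsets it was -0.33, against -0.30 for the 10.

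The genes that neighbour the class I genes on chromosome 17 were read as well. Between the outer ends of Tapbp and H2-D1, a stretch that holds 7 of the 10 genes, 62 genes that are neither among the 10 nor in the lists of MHC genes were tested. Of these, 2 were lower, Brd2 and C4b, which is 3.23% of them against 2.76% of all genes, and their median log2 fold change was -0.10.

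General peptide loading and proteasome genes gave a mixed picture. Of 12 chaperones and trimming enzymes of the loading pathway, 0 were lower by edgeR's test or limma-voom, 1 was lower by DESeq2 and 1 at an unadjusted p under 0.05, and 1 was higher: Ide, a peptidase, at a log2 fold change of 0.41 (adjusted p = 0.00815). Ganab was at -0.24 (adjusted p = 0.0611) and Pdia3, the disulphide isomerase of the loading complex, at 0.16 (adjusted p = 0.246). Of 8 proteasome activator and assembly genes, Psme1, a subunit of the PA28 activator that docks on the immunoproteasome, was lower at -0.29 (adjusted p = 0.0299), while its partner Psme2 was at -0.05 (adjusted p = 0.772) and Psme4 at 0.23 (adjusted p = 0.146). At an unadjusted p under 0.05, 1 of the 8 was lower and 3 were higher, and 4 had a fold change above 0. Psme1 did not pass with the GC content and length offsets (adjusted p = 0.0632).

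Among 25 factors that act on class I promoters or in interferon signalling, 24 were tested, 3 were lower, 1 was higher (4 and 6 at an unadjusted p under 0.05) and the median log2 fold change was -0.01. Among those lower were Stat2 at -0.57 (edgeR adjusted p = 0.00307) and Irf9 at -0.54 (adjusted p = 0.0103), both of which act downstream of type I interferon receptors. Jak2, a tyrosine kinase that associates with cytokine receptors, was higher at 0.30 (adjusted p = 0.0265), a call that was lost with the GC content and length offsets (adjusted p = 0.0555), under which Stat2 and Irf9 still passed. Irf1 was at -0.11 (adjusted p = 0.457).

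MHC class II genes, which are held by professional antigen presenting cells, were called 0 times in either direction among the 9 tested of 11, by edgeR's test, DESeq2, limma-voom or an unadjusted p under 0.05, and their median log2 fold change was -0.03. Ciita, the class II counterpart of Nlrc5, averaged 0.807 ± 0.254 CPM in the WT libraries and 0.886 ± 0.474 CPM in the others (log2 fold change 0.16, SE 0.38, edgeR adjusted p = 0.844). Cd74, the invariant chain, was at -0.20 (adjusted p = 0.482) and H2-Ob at -0.32 (adjusted p = 0.419).

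**Figure D5:**
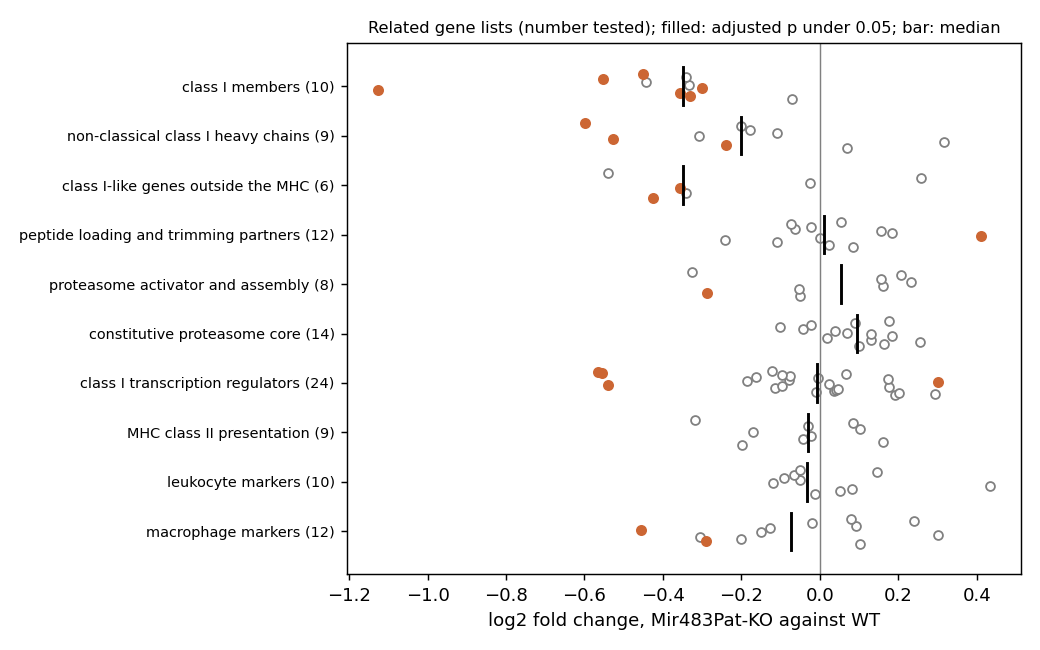
Log2 fold change of Mir483Pat-KO against WT for the tested genes of each list (number tested in parentheses); filled points have an edgeR adjusted p under 0.05 and black bars are list medians. The 10 class I genes at the top have a median of -0.35, the constitutive proteasome core 0.09 (0.03 with the GC content and length offsets) and MHC class II genes -0.03.

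Markers of the other cells of the liver were read beside the class I genes. Summed over 10 leukocyte markers, levels were 557 to 700 CPM in WT, against 597 to 662 CPM in Mir483Pat-KO, and 0 of the 10 passed by edgeR's test, DESeq2 or limma-voom; 1 did at an unadjusted p under 0.05, Cd53 at 0.43 on the log2 scale (edgeR adjusted p = 0.09). The lymphocyte and dendritic cell list summed to 54.1 to 77.9 and 58.2 to 73.0 CPM, with 0 of 9 tested genes called by these 3 tools and 1 at an unadjusted p under 0.05, and Cd3e, Cd8a and Xcr1 were at or near 0 in every library. Of 12 macrophage markers, 2 were lower, C1qa at -0.29 (adjusted p = 0.0389) and Clec4f at -0.46 (adjusted p = 0.0416), against 3 by DESeq2, 2 by limma-voom and 4 at an unadjusted p; 5 of the 12 had a fold change above 0, 1 of them, Cd5l at 0.30, at an unadjusted p under 0.05, and the sums were 947 to 1140 and 837 to 1078 CPM. Of 10 erythroid markers, 2 were higher, among them Rhag at 0.32 (adjusted p = 0.0486), against 4 by DESeq2, 2 by limma-voom and 8 at an unadjusted p under 0.05, with sums of 8735 to 11512 and 10013 to 13349 CPM. Of 10 endothelial markers, 1 was lower, Tie1, against 1 by DESeq2, 1 by limma-voom and 4 at an unadjusted p. A fold change below 0 was seen in 9 and above 0 in 1, with a median of -0.18. The sums were 630 to 710 and 543 to 658 CPM. With the GC content and length offsets 0 of the 10 were above 0. Of 9 hepatocyte markers, 1 was lower, Apoa1, against 3 by DESeq2, 2 by limma-voom and 4 at an unadjusted p. Here 7 had a fold change below 0 and 2 above, with a median of -0.15. The sums were 198310 to 224015 and 183740 to 211250 CPM. With the GC content and length offsets, Clec4f still passed, and C1qa, Rhag, Tie1 and Apoa1 did not. The part of these differences in the class I result was not tested.

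The genes whose pattern over the 10 libraries lay nearest to the mean pattern of the 10 class I genes were found by the root mean square difference in log2 level among 11316 other genes, whose median was 0.284. They were Atf5, a stress-responsive transcription factor, at 0.0571, Daxx, a histone chaperone encoded next to Tapbp, at 0.0588, the serpin gene Serpina11 at 0.0662, Tex264, a receptor for turnover of the endoplasmic reticulum, at 0.0672, Lrp10, of the LDL receptor family, at 0.0713 and Fcgrt at 0.0714. Of the 10 genes themselves, Tapbp at 0.07 and H2-D1 at 0.076 were the nearest to their own mean pattern, and Nlrc5 at 0.42 the farthest.

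Total counts per library ran from 10831350 to 14765880 and 20587 to 21751 genes were detected. Mir483 itself was counted 10 to 22 times in each WT library and 0 times in every Mir483Pat-KO library. No 2 libraries of a group were copies of each other, the closest of 20 pairs having a chi-square of 4.54 per degree of freedom. Whether the fetuses of a group came from separate litters is not given for these libraries, so p-values measure the spread between the fetuses sampled.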

How the data were processed

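Stranded polyA libraries of 10 fetal livers (5 WT, 5 Mir483Pat-KO) were sequenced as paired ends by the authors, who aligned reads to GRCm38 with STAR (per the labels) and deposited raw counts per Ensembl gene, with no normalization. The strand setting of the counting and the rule for reads with several matches are not given in the sources used here. Symbols, exon lengths and positions came from GENCODE on GRCm38 (55141 of 55401 identifiers had a symbol), and promoters from RefSeq (GRCm38.p6). Counts were filtered with filterByExpr, scaled by TMM and tested with the edgeR quasi-likelihood F-test (edgeR 4.0.16, R 4.3.3), without covariates, with Benjamini-Hochberg adjustment over 14098 genes and a threshold of 0.05; CPM used the scaled library sizes, and SE is the log2 fold change divided by the square root of F. Ratios were compared by two-sided exact permutation tests over 5 ratios. Alternatives used DESeq2 1.42.0 and limma 3.58.1, other filters and scalings, offsets for GC content and transcript length (jointly, and each alone as choices made after seeing the data), the identification number range, a replicate block, and leaving out each library. The code was tested on simulated data.

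The 10 genes and the lists were chosen with earlier results of these data known. The genes named were the 10; Psmb5, Psmb6, Psmb7, Psme1, Psme2, Irf1 and Ciita; up to 3 genes with the smallest p in each other list of the pathway; and the 6 genes nearest in pattern with an average log2 CPM of at least 2; some genes that this rule names are not reported here. Depth was 10831350 to 14765880 counts per library. Of the hepatocyte list, 1 symbol matched no identifier, and of the 18 other class I heavy chain genes H2-T9 matched none.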

Additional observations from a re-analysis of the deposited data

Results flagged for a closer look

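In WT replicate 1 the ratio of H2-K1 to H2-D1 was 1.126, and the nearest other WT library was at 1.268. The gap was 0.748 of the group's whole range, beyond the 95% critical value of Dixon's test for 5 samples. Of 30 groups examined (10 genes and 5 ratios in each genotype), this was the only one to stand out, and chance marks about 1 in 20.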

How the results depend on the processing

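All 10 class I genes stayed below 0 in each of the 12 alternative settings and each of the 10 fits without 1 library. The number called lower was 6 under RLE scaling, DESeq2, limma-voom, the robust fit, the stricter count filter, the GC content and length offsets (B2m in place of Psmb10), the length offset alone and the replicate block, 5 with no filter or the GC content offset alone, 8 with the identification number range as covariate, and 1 in the lower range alone (Nlrc5), where fewer samples were fitted. Leaving out 1 library gave 4 to 7, the lowest without Mir483Pat-KO replicate 4 and the highest without WT replicate 2, and a median log2 fold change between -0.418 and -0.305; H2-K1, Tap1, Tapbp and Nlrc5 passed in all 10 of these fits.

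Over all genes, 389 lower and 342 higher calls became 404 and 334 under RLE scaling, 401 and 352 under limma-voom, 399 and 366 under the robust fit, 404 and 358 with the stricter filter, 387 and 252 with the joint offsets, 479 and 384 with the length offset alone, 609 and 551 under DESeq2, 625 and 633 with no filter, 596 and 742 under the replicate block, 350 and 212 with the GC content offset alone, 543 and 646 with the range covariate, and 20 and 3 in the lower range; leaving out 1 library gave 192 to 475 lower and 87 to 389 higher. Same-numbered WT and Mir483Pat-KO libraries did not deviate together (mean correlation 0.0871, from -0.0496 to 0.261), so the numbers do not pair them.

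The log2 difference of Psmb10 to Psmb7 was -0.47 under the replicate block (exact sign-flip p = 0.0625, adjusted 0.156) and -0.40 in the lower range (exact permutation p = 0.0667, adjusted 0.333), where the raw values are the smallest these designs can give and cannot pass, -0.24 with the GC content and length offsets, and -0.532 to -0.417 without 1 library. That of Psmb9 to Psmb6 was -0.637 to -0.42 without 1 library. That of H2-K1 to H2-D1 was 0.0118 in the lower range and -0.0623 to 0.0137 without 1 library. The cause of these changes was not tested. Among the 10 genes, Nlrc5 had the fewest counts in total, 27 to 90 per library.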
